A study of Mus musculus with 4 samples.

Results

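A set of 40 genes of the cytosolic and mitochondrial heat-shock chaperone system was followed in mouse cells labelled as primary lung fibroblasts, in which calumenin had been targeted. The 40 genes were taken by symbol from a table of 54532 genes, and each symbol matched 1 row. They cover the HSP70 and HSP110 chaperones, HSP90 and its cochaperones, J proteins, small heat-shock proteins, the mitochondrial chaperones, the TRiC chaperonin, and the regulators Hsf1, Bag1 and Bag3. RNA was sequenced from 2 libraries with the genotype Calu-WT (WT below) and 2 with the genotype Calu-KO, at 15635448 to 16510048 recovered reads per library. The labels name no treatment, strain, age or sex, do not say how calumenin was targeted (the sample titles carry the letters KD), and leave unsaid whether replicate libraries are from different animals or cultures. P-values therefore reflect the spread among the 4 libraries alone, and that spread may be technical.

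Calu itself, whose product binds calcium in the lumen of the endoplasmic reticulum (ER), had 178 and 177 FPKM in WT, against 14.9 and 10.9 FPKM in Calu-KO (log2 difference -3.70 ± 0.17, adjusted p = 0.00493, limma). FPKM are fragments per kilobase of gene, scaled to a library size. The size implied by the FPKM was below the recovered reads only in Calu-KO replicate 2 (1.46e+07 against 16038560). In the WT libraries it was 1.64e+07 and 1.66e+07, against 15635448 and 16033535 recovered reads. Relative to the other libraries, FPKM of Calu-KO replicate 2 are therefore higher than its total reads would give. The libraries of Calu-KO were not equally far from WT. Over tested genes, on log2(FPKM + 1), Calu-KO replicate 1 correlated with each WT library at 0.964, and Calu-KO replicate 2 at 0.938 and 0.939. Mitochondrial genes took 4.0% of reads in Calu-KO replicate 2, against 2.43% to 2.53% in the other 3 libraries. Of 10 fibroblast markers, 7 reached 1 FPKM in some library, whereas Dcn and Lum had no read in any library and Thy1 stayed at or under 0.137 FPKM. Their summed level, mostly Vim, Col1a2 and Col1a1, was 1080 to 1088 FPKM in WT and 1097 to 1326 FPKM in Calu-KO. Of the 7 tested, 5 had a negative log2 difference, and Col3a1 fell from 38.9 and 39.4 FPKM in WT to 11.9 and 12.2 FPKM in Calu-KO (adjusted p = 0.0115, limma). The 2 positive ones, Col1a2 and Col1a1, were higher in both Calu-KO libraries but did not pass. Col1a2 stood at 234 and 229 against 343 and 394 FPKM (adjusted p = 0.0721, limma), and Col1a1 at 130 and 121 against 146 and 188 FPKM (adjusted p = 0.208, limma). Epithelial markers summed to 2.89 and 2.40 FPKM in WT and 0.105 and 0.619 FPKM in Calu-KO, where Krt8 fell (adjusted p = 0.0274, limma), with Epcam and Sftpc at 0 throughout. Immune markers summed to 4.51 and 5.04 FPKM in WT and 2.46 and 2.87 FPKM in Calu-KO, nearly all of it Cd68 (adjusted p = 0.0888), and endothelial markers to 0.131 to 0.234 FPKM in all 4 libraries. The smooth muscle and pericyte list summed to 50.8 and 50.2 FPKM in WT and 37 and 53.0 FPKM in Calu-KO, carried by Cspg4 and by Des, which fell (adjusted p = 0.0412, limma). The mesothelial list, carried by Msln, summed to 33.0 and 30.4 FPKM in WT and 25.3 and 22.1 FPKM in Calu-KO. The part of these levels in the results was not tested. In such bulk samples, fewer cells of a type and less RNA per cell cannot be told apart.

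Heat-shock chaperones hold unfolded proteins, help them to fold and pass them on for repair or breakdown. HSP70 binds short exposed stretches and is loaded with clients by J proteins, nucleotide exchange factors of the HSP110 and BAG families release them, and HSP90 takes over clients such as kinases and steroid receptors with the help of cochaperones. The TRiC ring folds actin and tubulin, and HSP60 with its lid HSP10 folds proteins in the mitochondrial matrix. Many of these genes are induced together by the transcription factor HSF1, which binds heat-shock elements, arrays of the unit GAA in alternating orientation. In fibroblasts the system is known to handle actin, tubulin and intermediate filament proteins.

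The promoters show how closely some members are related, and where such arrays lie. RefSeq promoter windows (GRCm38.p6, the genome of mm10) were found for 33 of the 40 genes, and the 250 bases before the start of transcription were searched. Hsp90aa1, Hsp90ab1, Hspa8, Hspa9, Hsf1, St13 and Cct4 had no window and were not searched. The motif of 2 units was GAANNTTC or TTCNNGAA, which each read the same on both strands. It occurred in 14 of the 33 members with a window (Cct2, Cct5, Cdc37, Dnaja1, Dnajb4, Dnajb6, Fkbp4, Hspa1a, Hspa1b, Hspb1, Hspb6, Hspd1, Hspe1 and Hsph1). Of all 27025 genes in the promoter table, 14.5% had it in a window. The longer motif of 3 units, GAANNTTCNNGAA or TTCNNGAANNTTC, contains the shorter one and occurred in 0.514% of genes, and in Dnajb6, Hspd1 and Hspe1 of the members. A match is a description of the letters, not a binding site.

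Whole windows are shown for 3 genes, because the first pair belongs to the near-identical copies Hspa1a and Hspa1b, of which 1 had almost no reads, and the other to Hspb1, which had almost no reads either. Capitals mark matches to the motif of 2 units.
Hspa1a (chr17:34972157-34972406, minus strand): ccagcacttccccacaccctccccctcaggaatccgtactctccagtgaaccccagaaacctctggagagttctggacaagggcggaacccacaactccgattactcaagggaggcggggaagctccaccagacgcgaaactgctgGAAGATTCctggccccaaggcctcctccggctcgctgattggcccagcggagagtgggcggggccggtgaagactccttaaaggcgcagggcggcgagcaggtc
Hspa1b (chr17:34959239-34959488, minus strand): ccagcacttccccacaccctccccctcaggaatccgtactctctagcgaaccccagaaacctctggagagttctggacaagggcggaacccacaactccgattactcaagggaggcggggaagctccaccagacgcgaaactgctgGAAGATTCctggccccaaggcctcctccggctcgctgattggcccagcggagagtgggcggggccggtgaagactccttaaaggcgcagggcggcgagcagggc
Hspb1 (chr5:135887669-135887918, plus strand): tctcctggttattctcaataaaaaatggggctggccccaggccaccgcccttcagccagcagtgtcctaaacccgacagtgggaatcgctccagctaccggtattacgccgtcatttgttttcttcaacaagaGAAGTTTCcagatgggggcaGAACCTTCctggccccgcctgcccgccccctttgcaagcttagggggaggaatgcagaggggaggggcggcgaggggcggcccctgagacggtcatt
The Hspa1a and Hspa1b windows were identical at 247 of 250 bases, with the motif at the same place, 104 bases before the start.

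Stretches of 30 bases show the motif in 4 other members, with all matches in capitals. Hspd1 and Hspe1, which encode HSP60 and HSP10, lie head to head on chromosome 1, so their windows overlap and hold the same array, shown on the strand of Hspe1. Hspb6 is shown as the member that passed the test between WT and Calu-KO, and Hsph1 as a stress-inducible HSP110.
Hspe1 (chr1:55088056-55088085, plus strand): ccgTTCTAGAACCTTCCGGAAggccccgcg
Dnajb6 (chr5:29735844-29735873, plus strand): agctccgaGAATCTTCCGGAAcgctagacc
Hspb6 (chr7:30553170-30553199, plus strand): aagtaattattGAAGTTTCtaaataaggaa
Hsph1 (chr5:149636351-149636380, minus strand): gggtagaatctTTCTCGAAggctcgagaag
The Hspb6 match lay 120 bases before 1 of its 2 listed starts, within the gene, and the window of the other start held none.

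The members spanned almost the whole range of expression. In WT the mean level ran from 0.0103 FPKM for Hspa1a to 1086 FPKM for Hsp90ab1, which ranked 17 of 11885 tested genes. Hspd1, Hspa9, Hspa8, Cct5 and Hsp90aa1 followed at ranks 55, 77, 112, 116 and 156. Of the 40 members, 37 had a mean of at least 1 FPKM and were tested, and Hspa2, Hspa1a and Hspb1 were below that filter. Summed over the members, the share of all reads was 1.56% and 1.59% in WT, against 1.77% and 1.80% in Calu-KO. Much of this rise was Hsp90ab1. It held 53048 of 243813 and 54362 of 255285 member reads in WT, and 89298 of 292298 and 86274 of 288676 in Calu-KO.

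**Figure D1:**
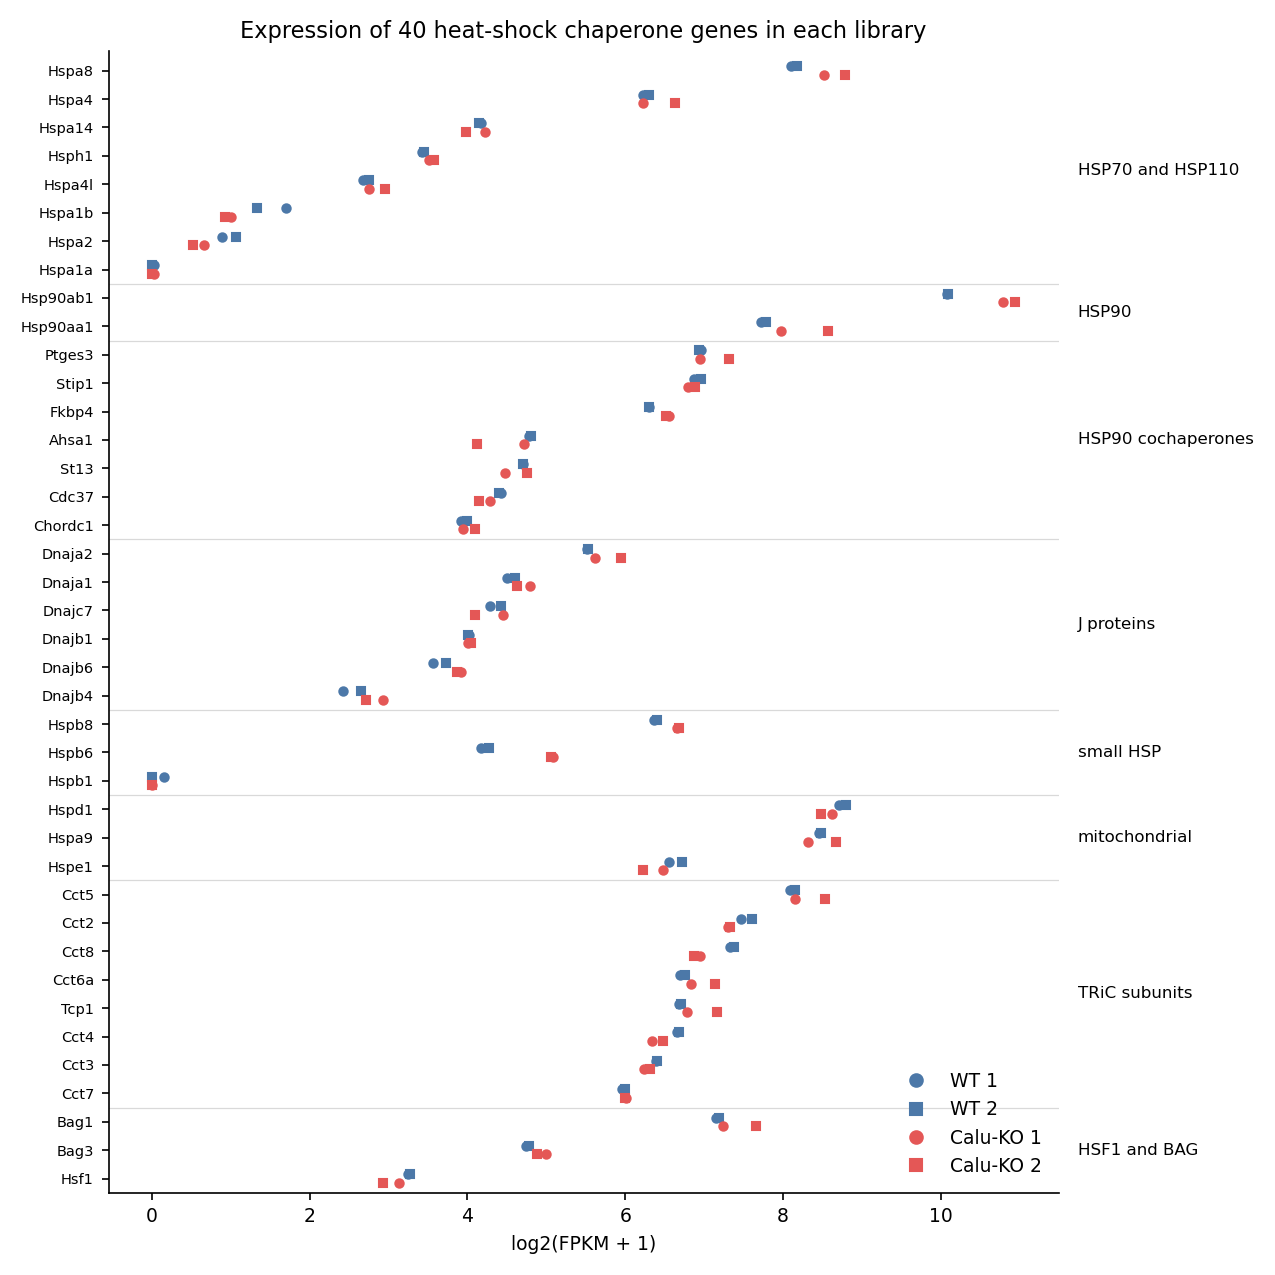
Level of each of the 40 chaperone genes in each library, as log2(FPKM + 1) on the horizontal axis, grouped by role. Blue marks are the 2 WT libraries and red marks the 2 Calu-KO libraries. Hsp90ab1 is the highest row in every library, and Hspa1a and Hspb1 sit at or near 0.

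Calu-KO was compared with WT on the log2(FPKM + 1) scale with limma, and p-values were adjusted over all 11885 tested genes. Of the 37 tested members, Hspb6 was higher in Calu-KO and no other passed, 2.70% of the members. Of all tested genes 2.77% passed in either direction, and 0.942% passed as higher. None of the 37 was called lower (limma, where 2 members were lower at an unadjusted p under 0.05, and voom called none). Of all tested genes, limma called 1.83% lower, and voom 469 of 11885. Unadjusted p-values under 0.05 were found for 6 members (Hspb6, Hsp90ab1, Hspa8, Hspb8, Cct8 and Hspa1b), or 16.2%, against 24.8% of all tested genes. The share of members called was thus near that of all genes. The number called rested on the libraries used. It was 0 without WT replicate 1 or without WT replicate 2, 21 without Calu-KO replicate 1 and 7 without Calu-KO replicate 2. With such a library left out, the remaining library of its group is assumed to vary like the other group.

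The groups did not overlap for 26 of the 37 tested members. In 16 members (43.2%) both Calu-KO libraries lay above both WT libraries, where this held for 32.0% of all tested genes, and in 10 (27.0%) both lay below, against 29.7% of all. The log2 difference was positive for 23 members, and its median was 0.11, against 0.01 over all tested genes. It was 0.03 with Calu-KO replicate 1 alone against WT and 0.14 with Calu-KO replicate 2 alone. The median of the members' absolute differences was 0.23, against 0.24 over all genes. With FPKM rescaled by total reads the members' median was 0.01 (all genes, -0.09), and with trends on GC content and length removed it was -0.02, so its sign is not fixed.

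**Figure D2:**
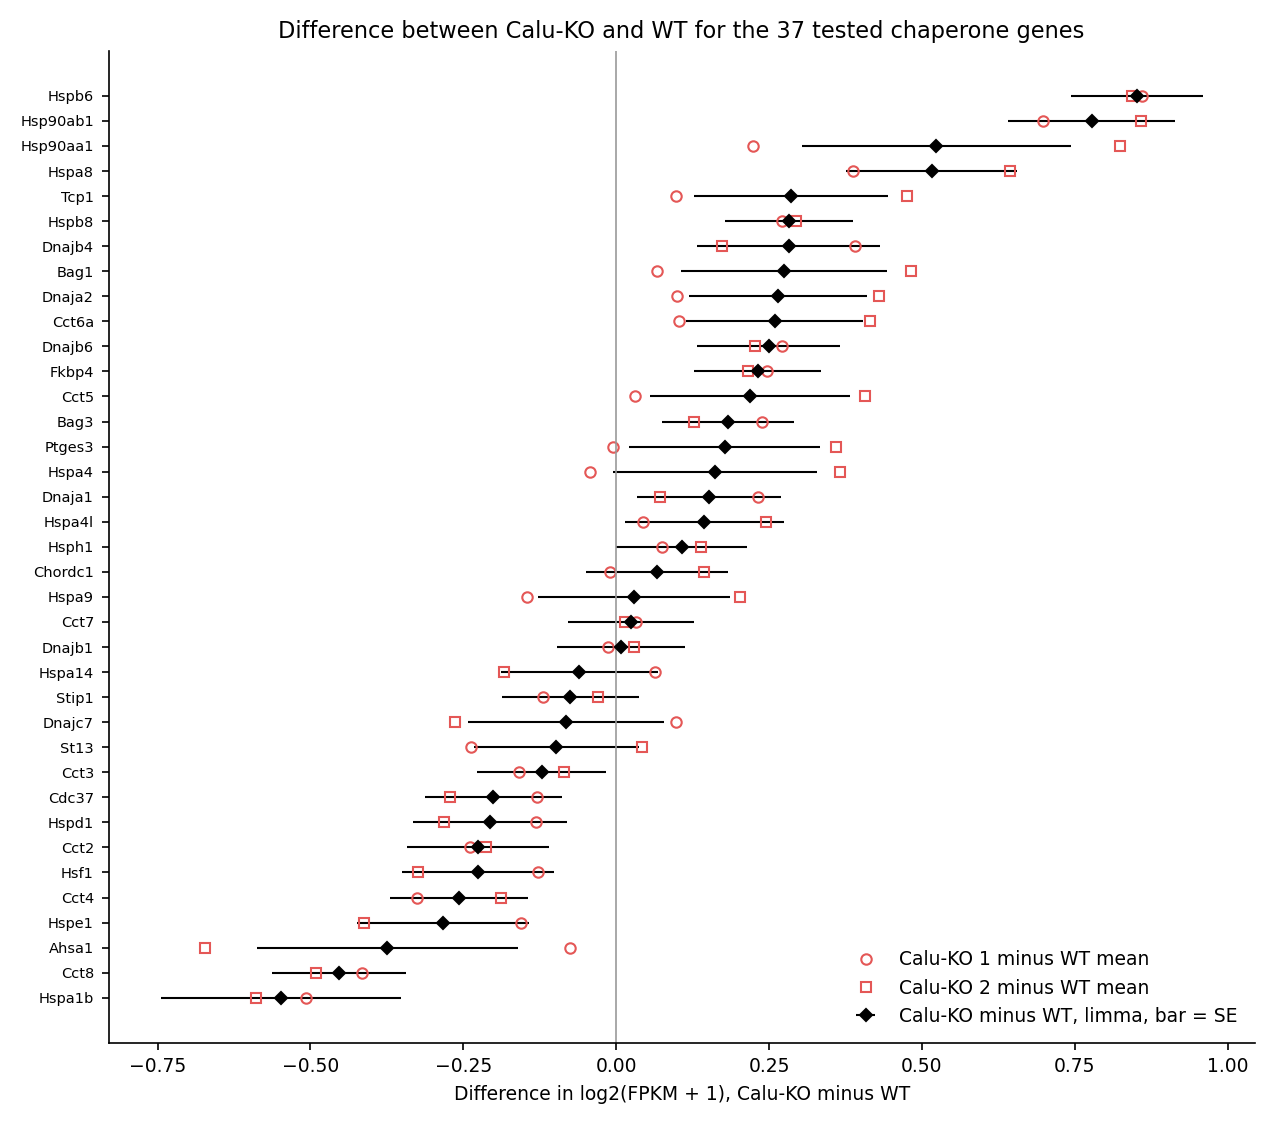
Difference in log2(FPKM + 1) between Calu-KO and WT for the 37 tested members, ordered by size. Black diamonds with bars give the limma difference and its SE, open circles and squares the separate Calu-KO libraries against the WT mean. Hspb6, at 0.85, and Hsp90ab1, at 0.78, lie farthest to the right, and Hspa1b, at -0.55, farthest to the left.

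Small heat-shock proteins bind unfolding proteins without using ATP. Hspb6 (HSP20; ENSMUSG00000036854, chromosome 7, 30552178 to 30555443, mm10), a small heat-shock protein known from muscle, stood at 17.0 and 18.4 FPKM in WT and at 32.9 and 32.5 FPKM in Calu-KO. Both Calu-KO libraries were above both WT libraries and close to each other. Hspb6 rose 1.85-fold, a log2 difference of 0.85 ± 0.11 (SE, n = 2 each; adjusted p = 0.0347, limma). The call was lost without WT replicate 1 (adjusted p = 0.390), without WT replicate 2 (0.291), with rescaling by total reads (0.0655) and with no filter on low values (0.113), and over 12 alternatives the log2 difference ran from 0.75 to 1.04. Of its exonic bases, 8.79% are shared with other annotated genes, of which Lin37 and Proser3 lie on the opposite strand, and strand use in counting is not given in the sources used here. These neighbours stood at 6.16 to 10.1 FPKM and 2.11 to 2.95 FPKM, with log2 differences of -0.25 ± 0.21 and 0.27 ± 0.14 (adjusted p = 0.486 and 0.286).

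Hspb8, which works with Bag3 in sending aggregating proteins to autophagy, stood at 81.5 and 83.3 FPKM in WT and 99.6 and 101 FPKM in Calu-KO. The groups did not overlap, and the log2 difference of 0.28 ± 0.10 did not pass (adjusted p = 0.187). Hspb1 (HSP25 in mouse), a small heat-shock protein that many cultured cells express at a high level, had 2 reads in WT replicate 1 and 0 in each of the other 3 libraries. At this depth 3 reads, the limit that a count of 0 allows, correspond to 0.172 to 0.199 FPKM for Hspb1. Of the windows of 100 bases in its main transcript, 56.3% also occur in the pseudogene Hsp25-ps1, which had no reads either, and how reads matching both were counted is not given in the sources used here. Among 7 other small heat-shock genes, Hspb7, a family member of heart and muscle, fell in Calu-KO. It stood at 5.82 and 5.83 FPKM in WT and 1.52 and 0.840 FPKM (71 and 34 reads) in Calu-KO (log2 difference -1.67 ± 0.19, adjusted p = 0.0311, limma). Of the 4 tested genes of that list 1 passed, while 1.83% of all tested genes were called lower. The median log2 difference of the 4 was -0.47, or -0.31 with Calu-KO replicate 1 alone and -0.72 with Calu-KO replicate 2 alone.

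HSP90 matures kinases, receptors and other clients. Hsp90ab1, the constitutive cytosolic HSP90 (ENSMUSG00000023944, chromosome 17, 45567775 to 45573271, mm10), stood at 1080 and 1091 FPKM in WT and at 1761 and 1969 FPKM in Calu-KO. The Calu-KO libraries were both well above WT, and the ratio of means was 1.72. The log2 difference of 0.78 ± 0.14 (95% interval 0.43 to 1.13) did not pass over all genes (adjusted p = 0.0632), whereas voom on the recovered reads gave an adjusted p of 0.0322. Over 12 alternatives it stayed between 0.67 and 0.86. None of the windows of 100 bases in its main transcript occurred in a transcript of another gene, and its exons overlapped no other gene. Hsp90ab1 alone made up 24.1% to 24.6% of the members' summed FPKM in WT and 33.6% to 34.2% in Calu-KO. The sum without it was 3303 and 3439 FPKM in WT and 3387 and 3886 FPKM in Calu-KO, which overlap.

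Hsp90aa1, the stress-inducible cytosolic HSP90, stood at 209.8 and 218.8 FPKM in WT and at 250.4 and 380.0 FPKM in Calu-KO. The Calu-KO libraries were higher but far apart, and the log2 difference of 0.52 ± 0.22 did not pass (adjusted p = 0.222). It was 0.22 in Calu-KO replicate 1 and 0.82 in Calu-KO replicate 2 against the WT mean. In the main transcript of Hsp90aa1, 47.5% of windows of 100 bases also occurred in other genes, chiefly the pseudogene Gm12346, at 6.78 to 9.95 FPKM, so its reads may be split.

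The ratio of Hsp90aa1 to Hsp90ab1 was 0.194 and 0.201 in WT and 0.142 and 0.193 in Calu-KO. Calu-KO was thus lower in both libraries, by 0.25 on the log2 scale (exact permutation test over libraries, two-sided p = 0.333, the smallest that 2 against 2 libraries can give). The difference rested on Calu-KO replicate 1, and without it was -0.03.

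The HSP90 cochaperones did not follow HSP90 in 1 direction. Of the 7, 3 had a positive and 4 a negative log2 difference, and none passed (limma, where 0 also had an unadjusted p under 0.05, and voom). Their median was -0.07, but its sign turned with the library, at -0.08 with Calu-KO replicate 1 alone and 0.04 with Calu-KO replicate 2 alone. Fkbp4 (FKBP52), a peptidyl-prolyl isomerase that serves steroid receptors, stood at 78.2 and 77.6 FPKM in WT and 92.6 and 90.6 FPKM in Calu-KO (log2 difference 0.23 ± 0.10, adjusted p = 0.243). Ahsa1, the activator of the HSP90 ATPase, stood at 26.5 and 27.0 FPKM in WT and 25.3 and 16.4 FPKM in Calu-KO, so that its difference came mainly from Calu-KO replicate 2.

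Cdc37, which delivers kinases to HSP90, stood at 20.5 and 20.2 FPKM in WT and 18.5 and 16.7 FPKM in Calu-KO, with no overlap (log2 difference -0.20 ± 0.11, adjusted p = 0.316). Stip1 (HOP), which links HSP70 with HSP90, was at 117 and 123 FPKM in WT and 110 and 117 FPKM in Calu-KO. For Stip1, St13, Chordc1 and Ptges3 the groups overlapped, with log2 differences from -0.10 to 0.18. Ptges3 (p23), which stabilises closed HSP90, shares 20.2% of its windows of 100 bases with other genes, chiefly Ptges3-ps, a pseudogene listed at 130 to 199 FPKM.

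Cytosolic HSP70 was led by its constitutive member. Hspa8 (HSC70; ENSMUSG00000015656, chromosome 9, 40800984 to 40810087, mm10) stood at 274 and 287 FPKM in WT and 367 and 439 FPKM in Calu-KO. Both Calu-KO libraries were above WT, the ratio of means was 1.44, and the log2 difference of 0.52 ± 0.14 (95% interval 0.16 to 0.87) did not pass (adjusted p = 0.121). Hspa8 has several processed pseudogenes, and 62.8% of windows of 100 bases in its main transcript occur in other genes. The closest of the 7 genes that share windows, Gm15459, had no reads. How reads matching several genes were counted is not given in the sources used here, so Hspa8 may have lost reads.

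The inducible copies were near silent. Hspa1b stood at 2.24 and 1.52 FPKM in WT (103 and 71 reads) and at 1.01 and 0.903 FPKM in Calu-KO (48 and 37 reads). Both Calu-KO libraries were lower, but the WT libraries differed much among themselves, and the log2 difference of -0.55 ± 0.20 did not pass (adjusted p = 0.181). Hspa1a had 1 read in WT replicate 1, 1 in Calu-KO replicate 1 and none in the other libraries. Of the windows of 100 bases in the Hspa1b transcript, 49.9% occur in other genes, chiefly Hspa1a, so the split between these copies is uncertain. Their summed level was 2.26 and 1.52 FPKM in WT and 1.03 and 0.903 FPKM in Calu-KO, a log2 difference of -0.55 (exact permutation test, two-sided p = 0.333).

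Hspa2, the testis-enriched HSP70, was below the filter at 0.855 and 1.09 FPKM in WT and 0.582 and 0.440 FPKM in Calu-KO. The HSP110 exchange factor gene Hspa4 stood at 73.8 and 77.9 FPKM in WT and 73.6 and 98.1 FPKM in Calu-KO, with overlap. Hsph1 (HSP105), the stress-inducible HSP110, was at 9.73 and 9.91 FPKM in WT and 10.4 and 10.9 FPKM in Calu-KO (log2 difference 0.11 ± 0.11, adjusted p = 0.552), and Hspa4l at 5.38 and 5.72 against 5.75 and 6.76 FPKM. The ribosome-bound HSP70 gene Hspa14 overlapped between groups, at 16.8 to 17.0 FPKM in WT and 14.7 to 17.7 FPKM in Calu-KO.

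Setting cytosolic members beside their ER counterparts within each library removes differences in scaling. Hspa5 (BiP), the HSP70 of the ER, stood at 819 and 830 FPKM in WT and 506 and 603 FPKM in Calu-KO (log2 difference -0.58 ± 0.14, adjusted p = 0.105). The ratio of Hspa8 to Hspa5 was 0.334 and 0.346 in the WT libraries and 0.725 and 0.728 in the Calu-KO libraries. It was close within each group and 2.13 times as high in Calu-KO, a log2 difference of 1.09 with SDs of 0.036 in WT and 0.0030 in Calu-KO (exact permutation test, two-sided p = 0.333, the smallest possible). This ratio joins a higher Hspa8 with a lower Hspa5, neither of which passed alone.

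The ratio of Hspa9, the mitochondrial HSP70, to Hspa5 was 0.427 in both WT libraries and 0.629 and 0.673 in Calu-KO (log2 difference 0.61, exact permutation p = 0.333). For HSP90, the ratio of Hsp90ab1 to the ER member Hsp90b1 was 2.0 and 1.90 in WT and 3.81 and 3.60 in Calu-KO (log2 difference 0.92, exact permutation p = 0.333). Hsp90b1 itself, at 539 and 574 FPKM in WT and 462 and 547 FPKM in Calu-KO, overlapped between the groups. Each of these 3 ratios was higher in both Calu-KO libraries than in either WT library. Those of Hspa8 and Hspa9 share Hspa5 and are not independent. Hspa9 itself overlapped between the groups, with a log2 difference of 0.03, so its ratio mainly carries the lower Hspa5. Of 12 genes of the ER HSP70 and HSP90 system 2 fell, Sdf2l1, a gene of chromosome 16 that acts with ER J proteins (75.2 and 67.6 against 31.6 and 31.6 FPKM, adjusted p = 0.0266), and Creld2, which is induced by ER stress (110 and 102 against 53.9 and 47.1 FPKM, adjusted p = 0.0311). Of all tested genes limma called 1.83% lower. With voom, 3 of the 12 were called lower, beside 469 of all 11885 tested genes. The median log2 difference of the 12 was -0.36, with 11 negative, whereas that of the 37 members was 0.11.

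**Figure D3:**
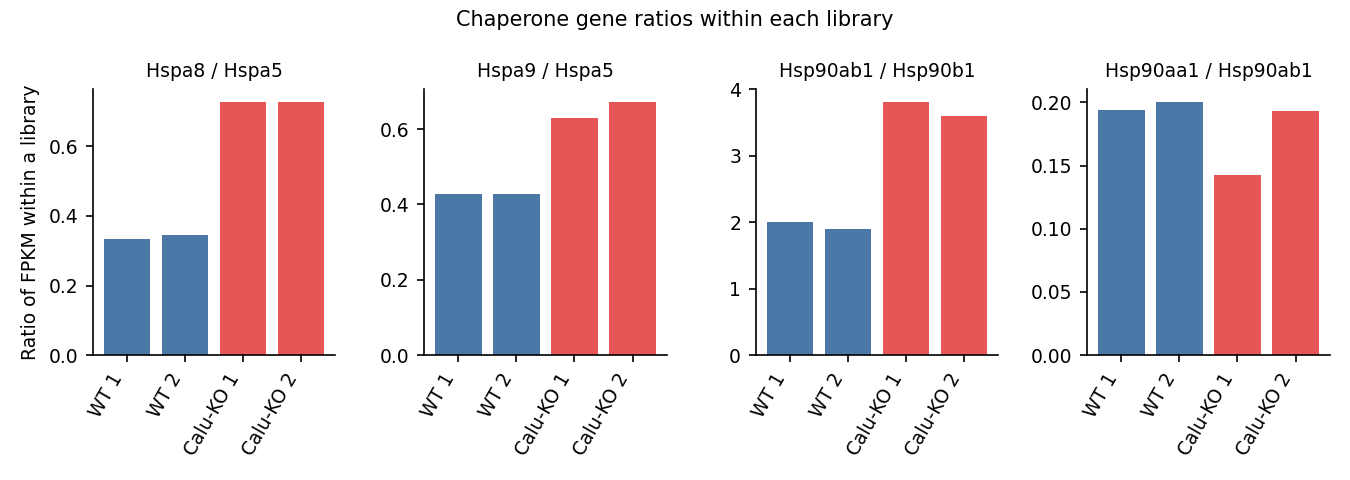
Ratio of FPKM between pairs of chaperone genes within each library, with 1 bar per library, WT in blue and Calu-KO in red. The ratio of Hspa8 to Hspa5 is 0.334 and 0.346 in WT and 0.725 and 0.728 in Calu-KO, and the ratio of Hsp90ab1 to Hsp90b1 is 2.0 and 1.90 in WT and 3.81 and 3.60 in Calu-KO.

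J proteins bring clients to HSP70 and start its ATPase. Of the 6 members, 5 had a positive log2 difference, the median was 0.20, and in 4 the Calu-KO libraries lay above WT without overlap (Dnaja1, Dnaja2, Dnajb4 and Dnajb6). Over all tested genes 50.7% were positive and 32.0% lay higher without overlap. None of the 6 passed (limma, where 0 had an unadjusted p under 0.05, and voom). Dnaja2, a general partner of HSC70, was the most abundant at 44.7 and 45.0 FPKM in WT and 48.1 and 60.7 FPKM in Calu-KO (log2 difference 0.26 ± 0.15, adjusted p = 0.311).

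Dnajb6, which holds back aggregation of polyglutamine and other proteins, stood at 10.8 and 12.3 FPKM in WT and 14.1 and 13.6 FPKM in Calu-KO (0.25 ± 0.12, adjusted p = 0.256). Dnajb4 stood at 4.38 and 5.28 FPKM in WT and 6.62 and 5.56 FPKM in Calu-KO (0.28 ± 0.15, adjusted p = 0.298). Dnajb1 (HSP40), the most heat-inducible of these genes, was nearly level at 15.3 and 15.1 FPKM in WT and 15.0 and 15.5 FPKM in Calu-KO, with a 95% interval for the log2 difference of -0.26 to 0.27. Dnajc7, which binds both HSP70 and HSP90, also overlapped between groups. Of 16 tested other J proteins none passed (limma, with 1, or 6.25%, lower at an unadjusted p under 0.05, against 24.8% of all tested genes), and voom called 1. The lowest p belonged to Dnaja3, a mitochondrial J protein on chromosome 16, at 17.0 and 18.0 FPKM in WT and 11.1 and 9.83 FPKM in Calu-KO (log2 difference -0.69 ± 0.12, adjusted p = 0.0571). Dnajc24, which serves the modification of elongation factor EEF2, followed at 8.21 and 8.57 against 6.74 and 6.90 FPKM (-0.26 ± 0.11, adjusted p = 0.218).

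In mitochondria, HSP60 and HSP10 work as a cage with a lid, and mortalin (Hspa9) pulls proteins in and folds them. Hspd1 (HSP60) stood at 418 and 446 FPKM in WT and 394 and 355 FPKM in Calu-KO, with no overlap (log2 difference -0.21 ± 0.13, adjusted p = 0.353). Hspe1 (HSP10) stood at 92.9 and 104.0 FPKM in WT and 88.2 and 73.6 FPKM in Calu-KO (log2 difference -0.28 ± 0.14, adjusted p = 0.275). The genes lie head to head on chromosome 1 (Hspd1 from 55077835 to 55088243 on the minus strand, Hspe1 from 55088132 to 55091307 on the plus strand) and share 112 exonic bases, so reads there cannot be assigned without strand.

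Both were lower in both Calu-KO libraries, and for each the difference was larger in replicate 2 (-0.28 and -0.41) than in replicate 1 (-0.13 and -0.15). Hspa9 overlapped between groups, at 350 and 355 FPKM in WT and 318 and 406 FPKM in Calu-KO. Of 17 other mitochondrial chaperone and protease genes none passed (limma, where 0 had an unadjusted p under 0.05, and voom), with 11 negative and a median of -0.07. Htra2, a protease of the intermembrane space, had the lowest p (log2 difference -0.42 ± 0.18, adjusted p = 0.227), followed by Timm44, which tethers HSP70 to the import pore (0.26 ± 0.11, adjusted p = 0.230).

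TRiC subunits take fixed places in the ring, so their transcripts were also compared with each other. The summed level of the 8 genes was 1055 and 1102 FPKM in WT and 1002 and 1155 FPKM in Calu-KO, so the groups overlapped. Of the subunits, 4 had a positive and 4 a negative log2 difference, with no member past the test (limma and voom). In limma 1 subunit, or 12.5%, was lower at an unadjusted p under 0.05, against 24.8% of all tested genes in either direction. Cct8 (theta; ENSMUSG00000025613, chromosome 16, 87483326 to 87495873, mm10) stood at 160 and 166 FPKM in WT and 122 and 116 FPKM in Calu-KO. Both Calu-KO libraries were lower, and the log2 difference was -0.45 ± 0.11 (95% interval -0.73 to -0.17, adjusted p = 0.101). With trends on GC content and length removed Cct8 passed as lower (log2 difference -0.52, adjusted p = 0.0493), and it passed in no other alternative that used all 4 libraries (adjusted p from 0.0722 to 0.190). Beside this value, the 354 tested genes of chromosome 16 had a median log2 difference of -0.24, against 0.01 over all genes, and its part in the result was not tested.

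Cct4 (delta) and Cct2 (beta) were likewise lower without overlap, at 99.6 and 102 against 80.1 and 88.2 FPKM and at 175 and 194 against 156 and 159 FPKM, with adjusted p-values of 0.234 and 0.287. Cct3 (gamma), at 83.0 and 83.4 against 74.4 and 78.4 FPKM, had a smaller difference (-0.12 ± 0.11). Tcp1 (alpha) stood at 101 and 103 FPKM in WT and 109 and 143 FPKM in Calu-KO, and Cct6a (zeta) at 103 and 107 against 113 and 140 FPKM, both without overlap (adjusted p = 0.313 and 0.317). In these, the higher value was that of Calu-KO replicate 2. Of their exonic bases, 16.9% (Tcp1) and 15.3% (Cct6a) are shared with other annotated genes, some on the opposite strand. The highest of those genes averaged 48.2 FPKM for Tcp1 and 20.9 FPKM for Cct6a. Cct7 (eta) was level at 61.3 and 62.7 FPKM against 63.4 and 62.7 FPKM, with a 95% interval of -0.24 to 0.29.

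Cct5 (epsilon) had the highest level of the 8 in every library, at 272 and 284 FPKM in WT and 284 and 369 FPKM in Calu-KO. Levels between genes depend on the length used. The deposited lengths of most genes equal the union of all annotated exons, which for Cct7 is 6778 bases, whereas its main transcript has 2441. On the deposited scale the highest subunit was 4.43 and 4.53 times the lowest in the WT libraries. Per length of 1 transcript per gene it was 2.68 times in each WT library, 3.13 times in Calu-KO replicate 1 and 3.69 times in Calu-KO replicate 2. All reads counted for a gene were used here, so any from its other transcripts or from overlapping genes stayed in. On that scale Cct5 took 22.4% and 22.6% of the 8 subunits' summed level in WT and 24.5% and 27.7% in Calu-KO, and Cct8 11.4% in each WT library and 9.11% and 7.53% in Calu-KO.

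**Figure D4:**
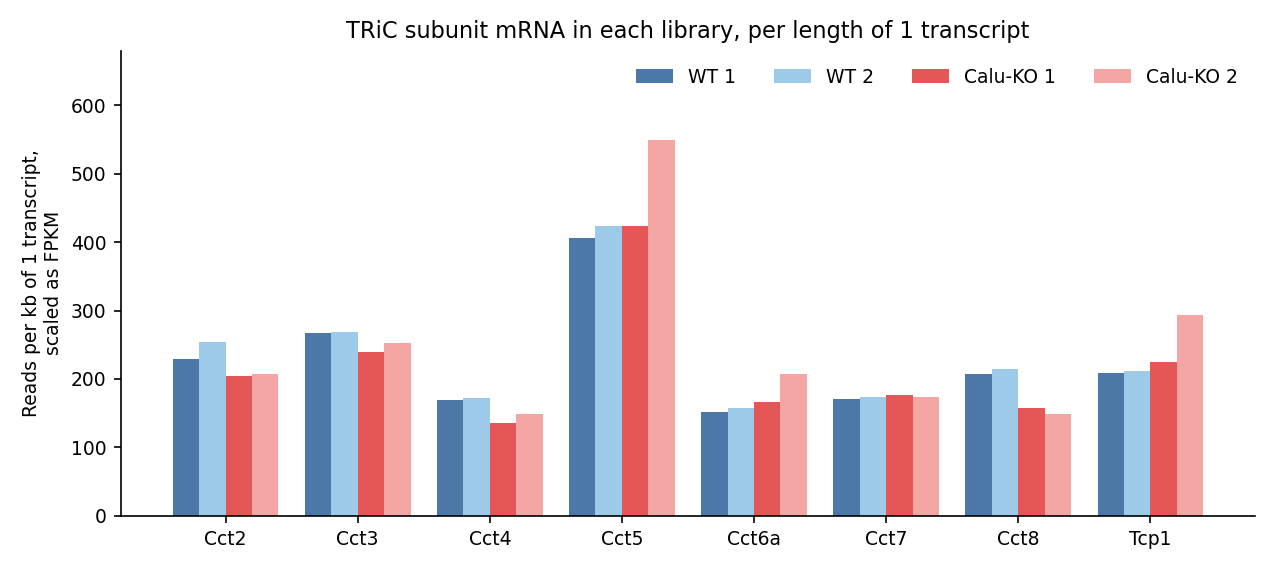
Level of each of the 8 TRiC subunit genes in each library (vertical axis, reads per kb of 1 transcript, scaled as FPKM), with 1 bar per library. The length is that of the principal transcript, or for Cct6a of the longest of the basic set, and the reads are all those counted for the gene. Cct5 is the highest in each library, from 405 in WT replicate 1 to 550 in Calu-KO replicate 2, and Cct8 is at 207 and 214 in WT and at 157 and 149 in Calu-KO.

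HSF1 drives the heat-shock response, and BAG proteins release clients from HSP70. Hsf1 stood at 8.53 and 8.63 FPKM in WT and 7.77 and 6.65 FPKM in Calu-KO, lower in both (log2 difference -0.23 ± 0.12, adjusted p = 0.310). Bag3, an HSF1 target that couples HSP70 with small heat-shock proteins, stood at 25.7 and 26.4 FPKM in WT and 30.9 and 28.6 FPKM in Calu-KO (0.18 ± 0.11, adjusted p = 0.339). Bag1, which links HSP70 to the proteasome, stood at 142 and 145 FPKM in WT and 150 and 200.5 FPKM in Calu-KO (0.27 ± 0.17, adjusted p = 0.354), with most of its difference in replicate 2. Transcript levels of Hsf1 do not measure its activity.

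Other genes of the folding system were given by lists that hold no member. Of 9 tested further HSP70 and exchange factor genes, 8 had a negative log2 difference and the median was -0.37. None passed (limma, with 1 higher and 5 lower at an unadjusted p under 0.05), and voom called 1 lower. Such unadjusted p-values were found for 66.7% of the 9, against 24.8% of all tested genes (limma). Hspa12b, a distant HSP70 of endothelium, stood at 3.78 and 2.71 FPKM in WT and 1.01 and 1.17 FPKM in Calu-KO (adjusted p = 0.0685). Sgta, a cochaperone that hands tail-anchored proteins on to the ER, stood at 44.1 and 45.3 against 34.7 and 31.3 FPKM (adjusted p = 0.114).

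Of 18 further HSP90 cochaperones none passed (limma, with 4, or 22.2%, lower at an unadjusted p under 0.05, and voom), and 12 were negative. Ahsa2, a relative of Ahsa1, had a log2 difference of -0.46 ± 0.15 (adjusted p = 0.158, limma). Of 15 genes of prefoldin and tubulin folding, 12 were negative (median -0.26) and none passed (limma, with 3, or 20%, lower at an unadjusted p under 0.05), while voom called 1. Both shares at an unadjusted p under 0.05 were below the 24.8% of all tested genes. The median rested on Calu-KO replicate 2, at -0.59 with that library alone and -0.03 with Calu-KO replicate 1 alone, and their summed level was 437 and 436 FPKM in WT, 421 FPKM in Calu-KO replicate 1 and 306 FPKM in Calu-KO replicate 2. Tbcb, a tubulin folding cofactor, stood at 51.0 and 50.9 FPKM in WT and 35.7 and 31.8 FPKM in Calu-KO (log2 difference -0.58 ± 0.11, adjusted p = 0.0752), and the prefoldin subunit gene Pfdn6 at 20.7 and 23.0 against 15.7 and 6.14 FPKM.

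The 9 tested tubulin genes, which encode TRiC clients, had a median log2 difference of 0.06, with 5 positive and 4 negative. None passed (limma, with 1, or 11.1%, lower at an unadjusted p under 0.05, against 24.8% of all tested genes, and voom). The lowest p-values were those of Tubg1, gamma-tubulin (-0.41 ± 0.15, adjusted p = 0.187), and Tuba4a (0.27 ± 0.12, adjusted p = 0.229). Of the other heat-shock factor genes, Hsf2 stood at 3.67 and 3.54 FPKM in WT and 4.24 and 5.34 FPKM in Calu-KO, and Hsbp1, an HSF1-binding protein, at 33.6 and 33.8 against 28.6 and 20.3 FPKM, neither past the test (limma, adjusted p = 0.247 and 0.201).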

How the data were processed

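The authors deposited 1 table of FPKM values, with 1 column per library and gene lengths and coordinates. Per the labels' protocols, paired-end reads from an Illumina NovaSeq were aligned with HISAT2 2.0.5, and per the submitters' processing notes the build was mm10. For the read counter, the annotation and the strand setting, nothing is given in the sources used here. Multiplied by gene length, 100% of values were whole numbers of reads in each library (tolerance 0.01 reads), and these reads were recovered. Precision is set by 15635448 to 16510048 reads per library, and floors of 3 reads cover counting error only.

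The tests used log2(FPKM + 1), on which differences of low genes come out too small. Genes averaging 1 FPKM or more over the libraries were tested with limma 3.58.1 in R 4.3.3 (eBayes with an intensity trend), two-sided, with Benjamini-Hochberg adjustment over all tested genes and a threshold of 0.05. Folds are ratios of mean FPKM. Single ratios were tested by exact permutation over libraries. The fit was run on simulated data to check the code, with the same spread for all genes of a group, so that run does not vouch for single calls here. The members, lists, ratios and tests were chosen with earlier results of these data known. Named genes are all members, Calu, Hspa5 and Hsp90b1, and, per further list, the genes past the threshold or otherwise the 2 with the lowest p. The result of 1 gene that this rule names is not reported here. Alternatives were another pseudocount, no filter, each library left out, a replicate block, rescaling by total reads, no intensity trend, removal of trends on GC content and length, and voom on recovered reads, which was added after the data were seen. Shared windows of 100 bases and exon overlaps come from GENCODE M21, and promoters from RefSeq.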

Additional observations from a re-analysis of the deposited data

How the results depend on the processing

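Among all genes, 329 passed (112 higher and 217 lower). The count was 0 with no filter on low values, with 0 higher and 0 lower (limma, 3886 genes at an unadjusted p under 0.05, against 2944 before), and 52 to 5778 with 1 library left out (10 to 2943 higher, 41 to 2835 lower). It was 197 with rescaling by total reads (45 higher, or 22.8%, against 34.0%), 557 with trends on GC content and length removed (232 higher, 325 lower) and 830 with voom (361 higher, 469 lower). The labels do not say whether replicate numbers pair the libraries. The difference between replicates 1 and 2 was hardly correlated between WT and Calu-KO (r = 0.015 across genes), a check that could miss shared handling. A replicate block gave 493 (181 higher, 312 lower) and, with the GC and length removal, 730 (311 higher, 419 lower). Of the members, 0 were called with no filter or rescaling, 1 with the block, 1 with the block and the GC and length removal, 2 with the GC and length removal (1 lower), 2 higher with voom, and 0 to 21 with a library left out (0 to 14 higher, 0 to 7 lower). The members' median log2 difference was 0.11, 0.0082 with rescaling, -0.015 with the GC and length removal with or without the block, and 0.03 to 0.14 with a library left out. Signs reversed with the GC and length removal, with or without the block, for Hspa4l (-0.13), Hspa9 (-0.081), Hsph1 (-0.015), Dnaja1 (-0.084), Cct7 (-0.060), Stip1 (0.054) and Chordc1 (-0.23). With rescaling they reversed for Hspa9 (-0.080), Dnajb1 (-0.094), Cct7 (-0.083) and Chordc1 (-0.036). With a library left out they reversed, at 1 end of the range, for Hspa4 (-0.043 to 0.37), Hspa9 (-0.15 to 0.20), Hspa14 (-0.18 to 0.063), Dnajb1 (-0.014 to 0.029), Dnajc7 (-0.26 to 0.098), Ptges3 (-0.0049 to 0.36) and Chordc1 (-0.011 to 0.14), each without Calu-KO replicate 2, for St13 (-0.24 to 0.042) without Calu-KO replicate 1, and for Dnajb1 also without WT replicate 2 (-0.00031). None of the reversed values passed the test, and the cause was not tested. All 5 within-library ratios and sums kept their direction under the alternatives run, most of which could not have turned it. Their groups did not overlap, so leaving out a library could not, and the replicate block gives the same value. Rescaling nearly cancels in a ratio. Removal of trends on GC content and length was not run for them. The planned edgeR and DESeq2 fits were not run, since the deposited unit was FPKM. The lowest genes are limited by depth, with Hspa1a and Hspb1 at 0 to 2 reads.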
